A study of Mus musculus with 12 samples.

Results

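De novo lipogenesis builds fatty acids from the carbon of glucose, and the liver is one of its main sites. The genes described here are 10 of the 52636 annotated mouse genes in the deposited counts, and they were chosen by name: the regulators Srebf1 and Mlxipl, the small nuclear protein gene Thrsp, and the enzymes Acly, Acaca, Acacb, Fasn, Elovl6, Scd1 and Me1. Their RNA was measured by RNA-seq in livers of 12 male C57Bl/6J mice aged 16 weeks, with 1 library per mouse. Mothers of the 6 VDD-F1 mice ate a vitamin D deficient diet, with calcium gluconate added, before mating and through pregnancy, and mothers of the 6 VDS-F1 mice ate a nutrient-matched sufficient diet. All mothers were given the sufficient diet after delivery, and all offspring ate it after weaning, so the groups differ in what the mother ate and not in what the mice ate as adults. Which mice were littermates, and the time of day and feeding state at dissection, are not given in the sources used here.

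Acetyl-CoA for the pathway comes from citrate, which Acly splits in the cytosol. Acaca carboxylates it to malonyl-CoA, Fasn joins these units into palmitate with NADPH, of which Me1 is one source, Elovl6 lengthens palmitate to stearate, and Scd1 puts a double bond into the chain. Acacb carries out the same reaction as Acaca at the mitochondrial surface, where malonyl-CoA restrains the import of fatty acids for oxidation. Srebf1 encodes SREBP-1, whose hepatic form is driven by insulin and liver X receptors, Mlxipl encodes ChREBP, a sensor of sugar metabolites, and Thrsp (Spot 14) is a target of both that raises fatty acid synthesis. In the fed liver the enzymes are therefore known to rise together, and fasting lowers them.

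Within the VDD-F1 and VDS-F1 mice the samples fall into a further split that is not a label of the deposited samples. The study's supplement records a liver weight for 7 of the 12 mice (VDS3 to VDS6, VDD4 to VDD6) but not for the remaining 5 (VDS1, VDS2 and VDD1 to VDD3). They are called the recorded set and the unrecorded set below, each holds mice of both diets, and the diets are also compared within each. What separated the sets at dissection was not stated.

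Libraries held 25897868 to 36403413 fragments, of which 14275793 to 20815066 were counted on the annotated strand of genes. All 9 hepatocyte markers matched by symbol, among 10 listed, were expressed, with a summed level of 94593 to 131297 counts per 1000000 counted fragments (CPM). Of 8 adipocyte markers, Lep and Retn were at 0 in every library and the sum was 13.2 to 27.0 CPM, so fat tissue, which also makes these enzymes, was close to absent by its markers. The VDD2 library stood apart: it had the highest sums of the stellate (857 CPM), Kupffer (399 CPM), cholangiocyte (132 CPM) and lymphocyte (34.3 CPM) markers, where the highest of all VDS-F1 mice were 519, 340.5, 50.2 and 12.9 CPM. Its hepatocyte markers summed to 129314 CPM, above the 117487 CPM of the highest VDS-F1 mouse. Results that rest on VDD2 are given with and without it, and in whole liver fewer hepatocytes and less RNA per hepatocyte cannot be told apart.

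The promoters of 3 members are shown because the results turn on them. Thrsp and Fasn had the widest ranges between livers, and Mlxipl is the regulator with the lowest p-value between the diets. Each run is the 250 bases before a RefSeq transcript start on GRCm38.p6, written 5′ to 3′ on the strand of the gene, and capitals mark matches on either strand to the CCAAT box (CCAAT), the GC box (GGGCGG), the E-box (CACGTG) or the sterol response element (TCACNCCAC).
Fasn, chr11:120824548-120824797, minus strand: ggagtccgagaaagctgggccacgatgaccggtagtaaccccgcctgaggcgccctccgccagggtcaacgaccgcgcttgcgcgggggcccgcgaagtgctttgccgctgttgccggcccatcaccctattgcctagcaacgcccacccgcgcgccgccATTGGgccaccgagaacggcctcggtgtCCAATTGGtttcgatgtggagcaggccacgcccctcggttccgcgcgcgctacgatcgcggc
Thrsp, chr7:97417551-97417800, minus strand: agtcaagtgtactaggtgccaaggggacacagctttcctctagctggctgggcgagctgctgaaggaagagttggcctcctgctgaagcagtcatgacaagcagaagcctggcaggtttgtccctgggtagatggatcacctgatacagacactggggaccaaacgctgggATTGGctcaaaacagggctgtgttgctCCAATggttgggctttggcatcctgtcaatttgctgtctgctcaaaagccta
Mlxipl, upstream start, chr5:135089640-135089889, plus strand: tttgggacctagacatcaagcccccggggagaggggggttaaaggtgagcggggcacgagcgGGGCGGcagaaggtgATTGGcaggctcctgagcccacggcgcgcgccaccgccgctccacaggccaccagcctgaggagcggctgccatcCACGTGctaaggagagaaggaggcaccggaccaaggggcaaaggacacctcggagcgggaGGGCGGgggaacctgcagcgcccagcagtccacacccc
Mlxipl, downstream start, chr5:135106641-135106890, plus strand: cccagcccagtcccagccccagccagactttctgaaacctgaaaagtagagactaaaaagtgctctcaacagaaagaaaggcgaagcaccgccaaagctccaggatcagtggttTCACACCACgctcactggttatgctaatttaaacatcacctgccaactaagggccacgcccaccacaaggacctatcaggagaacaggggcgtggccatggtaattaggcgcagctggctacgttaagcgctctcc
Fasn had 3 CCAAT matches, of which 2 overlap by a few bases, and Thrsp had 2. Of the 13 promoters found for 9 members, 7 held a CCAAT match, against 33.8% of all 32851 promoters of the same length, and 5 held a GC box, against 32.7%. The E-box was in 1 of the 13 (6.02% of all) and the sterol response element in 1 (1.05% of all), and both were promoters of Mlxipl. Motif matches in a promoter are a description of its letters and do not show that a factor binds there. Only exact matches within 250 bases were sought, so a missing match does not show that a gene lacks the element. No promoter was found for Scd1, and those found for Acaca and Acacb belong to starts inside the annotated genes.

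Compared per kilobase of exon, Scd1 stood far above the other members, at 4339 ± 2219 CPM per kb (SD, n = 12), and it alone took 2.11% of all counts on average (0.900% to 4.87%). Fasn followed at 202 ± 169, Acly at 134 ± 80.1 and Thrsp at 106 ± 83.1 CPM per kb. Me1 at 71.9 ± 33.6, Srebf1 at 60.5 ± 21.9, Acacb at 31.1 ± 20.3, Mlxipl at 25.6 ± 7.39, Elovl6 at 24.4 ± 15.02 and Acaca at 13.8 ± 8.02 CPM per kb came next. Scd1 exceeded Fasn and Elovl6 exceeded Acaca in all 12 mice, while the order of the other neighbours held in 5 to 10 mice. The levels of neighbours were not tested against each other. The cytosolic carboxylase was the least abundant member per kilobase of merged exon, which for Acaca is 17074 bases. Before division by length, the mean CPM of Acaca lay above those of Elovl6 and Mlxipl in both diets. They were 254, 163 and 114 CPM in VDD-F1 and 217, 151 and 170 CPM in VDS-F1.

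The members differed in how much they varied between livers. Thrsp spanned 16.8-fold from its lowest to its highest mouse, Fasn 7.93-fold, Me1 6.53-fold and Acacb 6.06-fold. Scd1 spanned 5.37-fold, Acly 5.28-fold, Elovl6 5.02-fold and Acaca 4.02-fold. The transcription factors moved least, with 3.75-fold for Srebf1 and 2.97-fold for Mlxipl. The same mice held the high values of most members: VDS2 was among the 3 highest mice for all 10 members, and VDD1 and VDD3 were among them for 8 each. VDD4 was among the 3 lowest for 7 members.

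**Figure D1:**
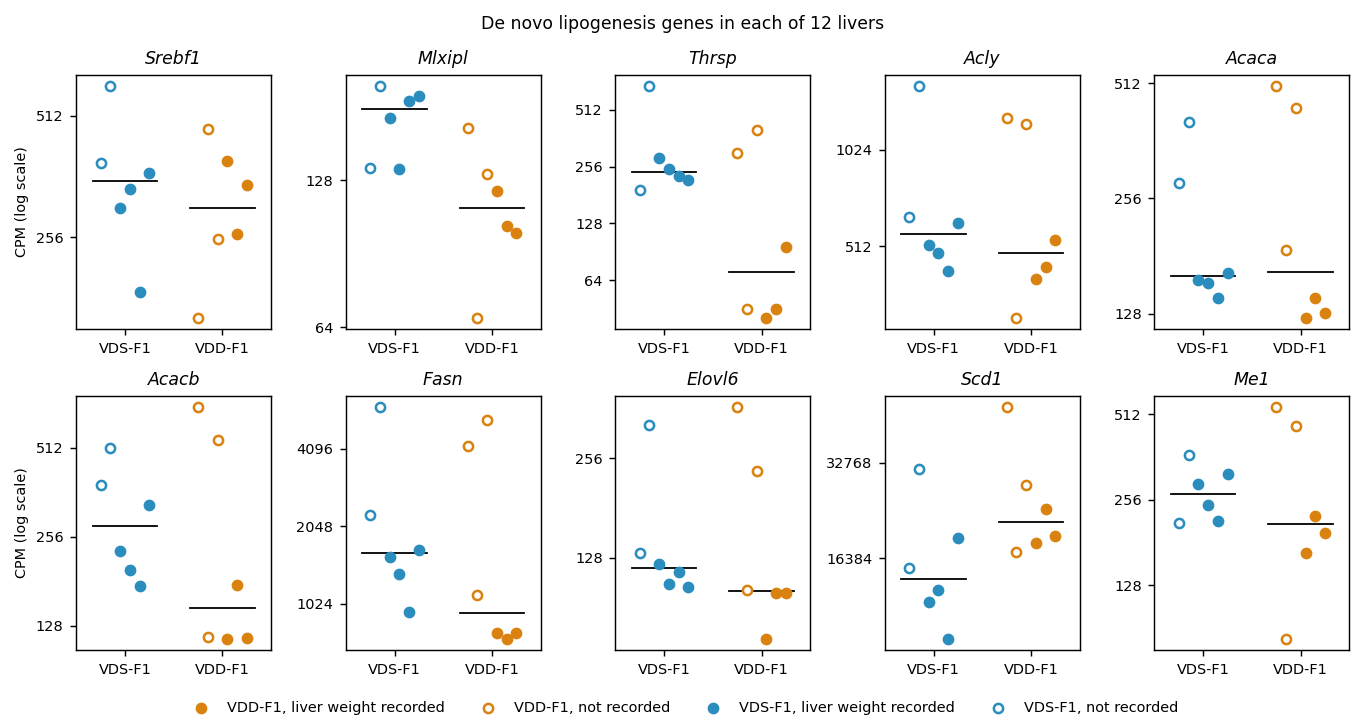
CPM of the 10 members in each liver, on a log axis in each panel, by diet (orange VDD-F1, blue VDS-F1) and by set (filled, liver weight recorded; open, not recorded), with a bar at the median of each diet. Open symbols of VDD1, VDD3 and VDS2 sit at the top of most panels, and the diets overlap in all 10.

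Between the diets no member was called. A call needed an adjusted p under 0.05 in edgeR's quasi-likelihood test, where the Benjamini-Hochberg adjustment ran over 12453 genes, together with a log2 difference larger than 1 in size. Of all genes, 5 passed (0.0402%). At an unadjusted p under 0.05, 1 of the 10 members was lower in VDD-F1 and none was higher, beside 6.29% of all genes lower and 9.55% higher (15.8% in either direction). DESeq2 also called 0 members, beside 2.03% of all genes. The deposited counts are 1 per mouse, so p-values measure the spread between these mice.

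Mlxipl (ENSMUSG00000005373.13, chr5:135089890-135138382) was that member. Its level ran from 67.0 to 163 CPM in VDD-F1 (median 112) and from 135 to 199 CPM in VDS-F1 (median 179). The groups overlapped: the highest VDD-F1 mouse, VDD1, lay above the lowest 2 VDS-F1 mice. The log2 fold change of VDD-F1 over VDS-F1 was -0.57 with a standard error of 0.18, and edgeR gave it an adjusted p of 0.145. DESeq2 gave an adjusted p of 0.0477 for nearly the same difference, and an exact permutation test over all 924 splits of the mice gave p = 0.0108 (two-sided). Without VDD2, its lowest mouse, the difference was -0.45 with an adjusted p of 0.220 in edgeR, and without VDD1, its highest VDD-F1 mouse, it was -0.70 with an adjusted p of 0.0378.

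Srebf1 (ENSMUSG00000020538.15, chr11:60199089-60222581), the other transcription factor, had 162 to 476 CPM in VDD-F1 (median 303) and 187 to 607 CPM in VDS-F1 (median 354). The ranges lay almost on top of each other, and the difference was -0.21 ± 0.27 (log2, SE) with an adjusted p of 0.749 in edgeR. Thrsp (ENSMUSG00000035686.8, chr7:97412938-97417730) had 40.6 to 399 CPM in VDD-F1 (median 70.8) and 193 to 681 CPM in VDS-F1 (median 238). Here 4 of the 6 VDD-F1 mice lay below every VDS-F1 mouse, while VDD1 and VDD3 lay among the highest. Its difference of -1.0 ± 0.57 did not pass (adjusted p = 0.414 in edgeR). The mean log2 CPM of the diets differed by -1.48, with an exact permutation p of 0.0519. Voom with quality weights gave -1.74 (adjusted p = 0.0462), a call, and in edgeR the difference was -1.55 without VDD3 and -0.60 without VDS2, with adjusted p-values of 0.152 and 0.624.

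Among the enzymes Scd1 (ENSMUSG00000037071.2, chr19:44394455-44407879) had the only difference of some size. It had 17212 to 49076 CPM in VDD-F1 (median 21324) and 9135 to 31375 CPM in VDS-F1 (median 14147). The value of every VDD-F1 mouse lay above the VDS-F1 median, and the groups still overlapped because VDS2 and VDS6 were high. The log2 difference was 0.64 ± 0.32 with an adjusted p of 0.346 in edgeR, and the exact permutation test gave p = 0.0866. The other 6 enzymes differed between the diets by -0.09 to 0.23 on the log2 scale, with adjusted p-values of 0.825 to 0.986 in edgeR. The 95% interval of the Fasn difference, on the degrees of freedom of edgeR's test, ran from -1.32 to 1.14.

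Between the sets of mice, with the diet in the model, 3 enzymes were called, all higher in the unrecorded set. Of all genes 0.891% were called, 0.61% as higher. The estimates of all 10 members were positive. Those of Srebf1 (0.27 ± 0.27), Mlxipl (0.07 ± 0.19) and Me1 (0.54 ± 0.35) did not reach an unadjusted p under 0.05 in edgeR. The mean of Mlxipl was in fact lower in the unrecorded set (139 against 144 CPM). Of the members 7 were higher at an unadjusted p under 0.05, where 7.99% of all genes were. The median difference of the members was 1.14 on the log2 scale, beside 0.01 over all genes tested. Since the sets come from a record of liver weights, the comparison describes 2 sets of mice and not a treatment. Among the markers of other cell types, at an unadjusted p under 0.05, 4 of 8 endothelial markers were lower in the unrecorded set, 2 of 8 Kupffer markers and 1 of 8 stellate markers were higher, and of 9 hepatocyte markers 2 were lower and 1 higher. No adipocyte, cholangiocyte or lymphocyte marker reached that level, and no marker passed adjustment (1 endothelial marker did without VDD2). The part of these markers in the members' differences was not tested.

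Fasn (ENSMUSG00000025153.9, chr11:120805846-120824547), the multifunctional synthase that makes palmitate, rose most. Its levels in the unrecorded set were 4174, 1101 and 5265 CPM in VDD1 to VDD3 and 2268 and 5928 CPM in VDS1 and VDS2. In the recorded set it had 747 to 1657 CPM with a median of 949. Of the unrecorded mice only VDD2 lay within that range. The log2 difference was 1.90 ± 0.33 (SE), 3.74-fold, with an adjusted p of 0.00882 in edgeR. The plain difference of mean log2 CPM, without the diet, was 1.58 (exact permutation p = 0.00758 over 792 splits). Without VDS2 the edgeR difference was 1.74 with an adjusted p of 0.0551.

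Acaca (ENSMUSG00000020532.18, chr11:84129672-84401651), the enzyme of the first committed step, had 503, 188 and 441 CPM in VDD1 to VDD3 and 282 and 405 CPM in VDS1 and VDS2. The recorded set lay at 125 to 164 CPM. It was the only member whose sets did not overlap, as in 1.8% of all genes. The difference was 1.35 ± 0.20 with an adjusted p of 0.00247 in edgeR. The plain difference of mean log2 CPM was 1.26, and its exact p of 0.00126 is the smallest the permutation test can give. Acaca passed in edgeR without any 1 mouse.

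Elovl6 (ENSMUSG00000041220.10, chr3:129532355-129638495), the elongase of palmitate, had 365, 102 and 235 CPM in VDD1 to VDD3, 133 and 324 CPM in VDS1 and VDS2, and 72.8 to 122 CPM in the recorded set. VDD2 again lay among the recorded mice. The difference was 1.20 ± 0.27 with an adjusted p of 0.0327 in edgeR. That call was the least stable of the 3: it was lost in edgeR's robust fit (adjusted p = 0.0785) and without any 1 of 10 mice, all but VDD2 and VDS1 (adjusted p = 0.0545 to 0.147).

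Acacb (ENSMUSG00000042010.16, chr5:114146535-114250761), Acly (ENSMUSG00000020917.17, chr11:100476353-100528000) and Thrsp came next, with differences of 1.37 ± 0.35, 1.08 ± 0.30 and 1.49 ± 0.48. Their adjusted p-values in edgeR were 0.0584, 0.0839 and 0.146, so none of them passed. Acly had 1285 and 1231 CPM in VDD1 and VDD3, 1619 CPM in VDS2 and 631 CPM in VDS1, against 405 to 604 CPM in the recorded set and 307 CPM in VDD2. For Acacb, VDD1 and VDD3 had 701 and 542 CPM and VDS1 and VDS2 had 383 and 511 CPM, against 116 to 327 CPM in the recorded set and 117 CPM in VDD2. In both genes 4 of the 5 unrecorded mice stood above every recorded mouse. Scd1 differed by 0.72 ± 0.26 (adjusted p = 0.204) and Me1 (ENSMUSG00000032418.15, chr9:86581371-86695953), the malic enzyme, by 0.54 ± 0.35 (adjusted p = 0.559). The transcription factors differed least, Srebf1 by 0.27 ± 0.27 (adjusted p = 0.744) and Mlxipl by 0.07 ± 0.19 (adjusted p = 0.916).

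The VDD2 liver weighed on these values. Without it 6 members were called (Thrsp, Acly, Acaca, Acacb, Fasn and Elovl6), where 1.44% of all genes were, and Fasn differed by 2.09 ± 0.25. Fasn, Acly, Acaca, Acacb and Elovl6 then did not overlap between the sets, as 2.35% of all genes did with the unrecorded set above. Without VDS2, by contrast, 1 member was called, beside 0.642% of all genes. Within the VDS-F1 mice alone Acaca (1.16 ± 0.13, adjusted p = 0.00373) and Fasn (1.57 ± 0.32, adjusted p = 0.0467) were called in edgeR, beside 0.819% of all genes. Within the VDD-F1 mice, where VDD2 is 1 of 3 unrecorded mice, none was called and 5 were higher at an unadjusted p under 0.05, beside 6.32% of all genes. The part of the stellate, Kupffer, cholangiocyte and lymphocyte RNA that marks VDD2 in its low enzyme levels was not tested.

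Within the recorded set the diets were compared again. In these 3 VDD-F1 and 4 VDS-F1 mice Thrsp was called, beside 4.33% of all genes, and 4 members had an adjusted p under 0.05, all lower in VDD-F1, as were 5.11% of all genes. At an unadjusted p under 0.05, 7 members were lower and 1 higher, where 12.6% and 13.0% of all genes were. The median member differed by -0.38 on the log2 scale and the median gene by 0.01.

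Thrsp had 40.6, 45.4 and 96.3 CPM in VDD4 to VDD6 and 285, 248, 229 and 216 CPM in VDS3 to VDS6. Every VDD-F1 mouse lay below every VDS-F1 mouse by more than 2-fold. The log2 difference was -2.0 ± 0.26 with an adjusted p of 0.000562 in edgeR. Fasn had 787, 747 and 789 CPM in the VDD-F1 mice and 1555, 1334, 949 and 1657 CPM in the VDS-F1 mice, a difference of -0.83 ± 0.16 (adjusted p = 0.00631 in edgeR). Its VDD-F1 values lay close together and below all VDS-F1 values.

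Mlxipl had 121, 103 and 99.7 CPM in VDD4 to VDD6 and 172, 135, 186 and 191 CPM in VDS3 to VDS6, and differed by -0.66 ± 0.12 (adjusted p = 0.00583 in edgeR). The ChREBP gene was thus lower without overlap. Of 12 listed targets of ChREBP and liver X receptors, 4 were higher and 4 lower in the same mice at an unadjusted p under 0.05, with a median of 0.093 on the log2 scale. Of these Abcg5 (1.13 ± 0.17) and Abcg8 (0.86 ± 0.16) passed adjustment in edgeR as higher and Pklr (-1.52 ± 0.13) and Rgs16 (-5.94 ± 1.28) as lower. Acacb had 116, 177 and 116 CPM in VDD-F1 against 229, 198, 174 and 327 CPM in VDS-F1, with 1 VDD-F1 mouse just above the lowest VDS-F1 mouse, and differed by -0.77 ± 0.21 (adjusted p = 0.0380 in edgeR). Acaca and Elovl6 were also lower in every VDD-F1 mouse, by smaller amounts (-0.23 ± 0.08 and -0.30 ± 0.12) that did not pass adjustment. In all 5 members had every VDD-F1 mouse below every VDS-F1 mouse, as did 11.4% of all genes.

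Scd1 went the other way, with 18253, 23368 and 19280 CPM in VDD4 to VDD6 and 11938, 12997, 9135 and 18949 CPM in VDS3 to VDS6. It overlapped through VDS6, and its difference of 0.62 ± 0.20 had an adjusted p of 0.0677 in edgeR. Me1 was at -0.45 ± 0.14 (adjusted p = 0.0619), Acly at -0.15 ± 0.13 and Srebf1 at 0.16 ± 0.20, and none of these passed. Expressed per kilobase, Scd1 exceeded Fasn 51.9-fold to 70.0-fold in the recorded VDD-F1 mice and 17.2-fold to 25.6-fold in the recorded VDS-F1 mice, a ratio chosen after the values were seen and given without a test.

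In the unrecorded set, with 3 VDD-F1 and 2 VDS-F1 mice, no member reached an unadjusted p under 0.05 between the diets and 3.77% of all genes did. The diets overlapped in all 10 members. Srebf1 differed by -0.74 ± 0.44, Mlxipl by -0.47 ± 0.37 and Thrsp by -0.82 ± 0.85 (log2, SE). The enzymes differed by -0.26 (Acly) to 0.43 (Scd1), with Fasn at -0.22 ± 0.66 and Me1 at 0.33 ± 0.70. Whether the diet difference itself differed between the sets was tested as an interaction: 0 members were called and 0 had an unadjusted p under 0.05, in edgeR as in DESeq2, beside 0.0803% and 9.01% of all genes in edgeR, and the lowest adjusted p of a member was 0.643 in edgeR. Without VDD2, 6 members had an unadjusted p under 0.05 in that test, beside 16.6% of all genes. Me1 was called, at 1.25 ± 0.30 (adjusted p = 0.0409 in edgeR), beside 1.97% of all genes. Srebf1 was at -1.43 ± 0.38, Acacb at 1.24 ± 0.35, Acaca at 0.68 ± 0.19, Thrsp at 1.68 ± 0.58 and Fasn at 1.03 ± 0.42, with adjusted p-values of 0.0634 to 0.224 in edgeR. With the set as a term in the model of all 12 mice, Thrsp differed between the diets by -1.52 ± 0.48 and Mlxipl by -0.58 ± 0.18, both with an adjusted p of 0.131 in edgeR.

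**Figure D2:**
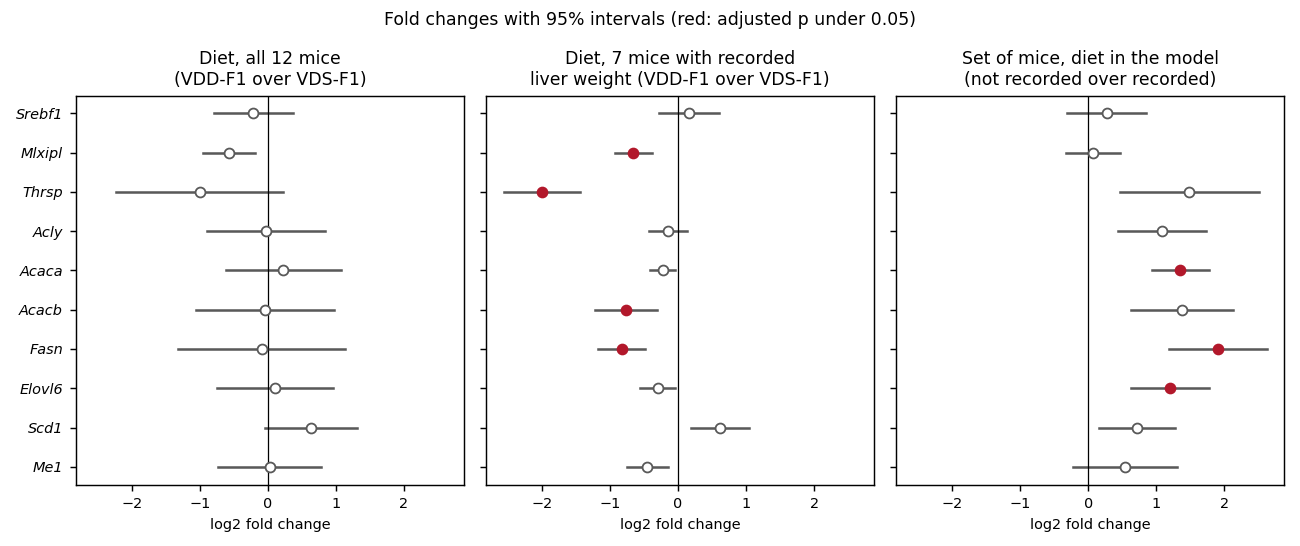
Log2 fold change of each member with the 95% interval of edgeR's quasi-likelihood test for the diets in all 12 mice, the diets in the 7 recorded mice, and the sets with diet in the model, with red marking an adjusted p under 0.05. No member is red in the first panel, 4 are red on the lower side in the second (Thrsp at -2.0), and 3 are red on the higher side in the third (Fasn at 1.90).

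The balance between the carboxylases, a ratio within each library that needs no scaling between libraries, was compared between the diets. The log2 ratio of Acacb to Acaca per kilobase was 1.31, 0.14, 1.12, 0.72, 1.16 and 0.68 in VDD1 to VDD6 and 1.27, 1.16, 1.37, 1.19, 1.13 and 1.83 in VDS1 to VDS6. Per kilobase of merged exon the mitochondrial form was the more abundant in every liver, while before division by these lengths its CPM was below that of Acaca in VDD2, VDD4 and VDD6. The ratios of VDD2, VDD4, VDD6 and, narrowly, VDD3 lay below those of every VDS-F1 mouse. The VDD-F1 mean of 0.85 ± 0.43 stood against a VDS-F1 mean of 1.33 ± 0.26 (n = 6 each, SD). They differed by -0.47 with an exact permutation p of 0.0390. That p rose above 0.05 without any 1 of 8 mice (VDD2, VDD4, VDD6, VDS1, VDS2, VDS3, VDS4 or VDS6), to 0.0541 to 0.0931 by exact permutation, and the difference was -0.33 without VDD2 and -0.37 without VDS6. Between the sets the ratio did not differ beyond the spread of the mice (-0.15, exact permutation p = 0.581).

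Each enzyme and Thrsp was set against the transcription factors across mice, using log2 CPM. Over all 12 mice Srebf1 had Pearson r of -0.43 to 0.02 with 7 of these genes, of which none passed after Benjamini-Hochberg adjustment over 14 relations by permutation. The median of these r was -0.11, and it was -0.52 without VDS2 and 0.23 without VDD1. Acaca was left out because its sets did not overlap. Mlxipl had r of 0.02 to 0.78 with the same genes. Its relation with Thrsp passed (r = 0.78, Spearman rho = 0.66, adjusted permutation p = 0.0319 for r and 0.173 for rho), and r was 0.66 without the 2 mice farthest from the median of Mlxipl. Both genes had lower means in VDD-F1, and within the diets the relation did not pass (r = 0.68 in VDD-F1 and 0.52 in VDS-F1, adjusted p = 0.191 and 0.498 by exact permutation).

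Within each diet the values for Srebf1 had opposite signs. In the 6 VDD-F1 mice r was negative for all 8 genes, from -0.96 for Scd1 to -0.67 for Fasn. In the 6 VDS-F1 mice it was positive for all 8, from 0.64 for Thrsp to 0.94 for Scd1. Both sets are pooled in these r, and Acaca is kept. The sets did not overlap for Acaca, Fasn and Elovl6 within either diet, nor for Srebf1, Acly and Acacb within VDS-F1. The part of the sets in these r was not tested. In VDD-F1, VDD1 had the lowest Srebf1 (162 CPM) with the highest Scd1 (49076 CPM), and VDD2 had the highest Srebf1 (476 CPM) with the lowest Scd1 (17212 CPM). In VDS-F1, VDS2 had the highest of both and VDS5 the lowest of both. After adjustment over the 16 relations of each diet, 8 with each transcription factor, 4 passed in VDD-F1 by exact permutation. They were Srebf1 with Scd1 (adjusted p = 0.0222 by exact permutation), with Acacb and with Me1 (0.0444 each), and Mlxipl with Me1 (r = 0.91, adjusted p = 0.0444), whose r was 0.60 without VDD1 and VDD2. By Spearman's rho only Scd1 and Me1 with Srebf1 passed (adjusted p = 0.0222 each by exact permutation), and Acacb with Srebf1 and Me1 with Mlxipl did not (0.133 each). None passed in VDS-F1, where the lowest adjusted p was 0.0667 by exact permutation. Without VDD1 and VDD2, r with Scd1 in VDD-F1 was -0.94, and without VDS2 and VDS5 it was 0.78 in VDS-F1, while r with Thrsp turned negative in the 4 VDS-F1 mice left. The difference between the diets in r was not tested, and in the 7 recorded mice, where no relation passed, r with the 8 genes ran from -0.56 to 0.56.

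**Figure D3:**
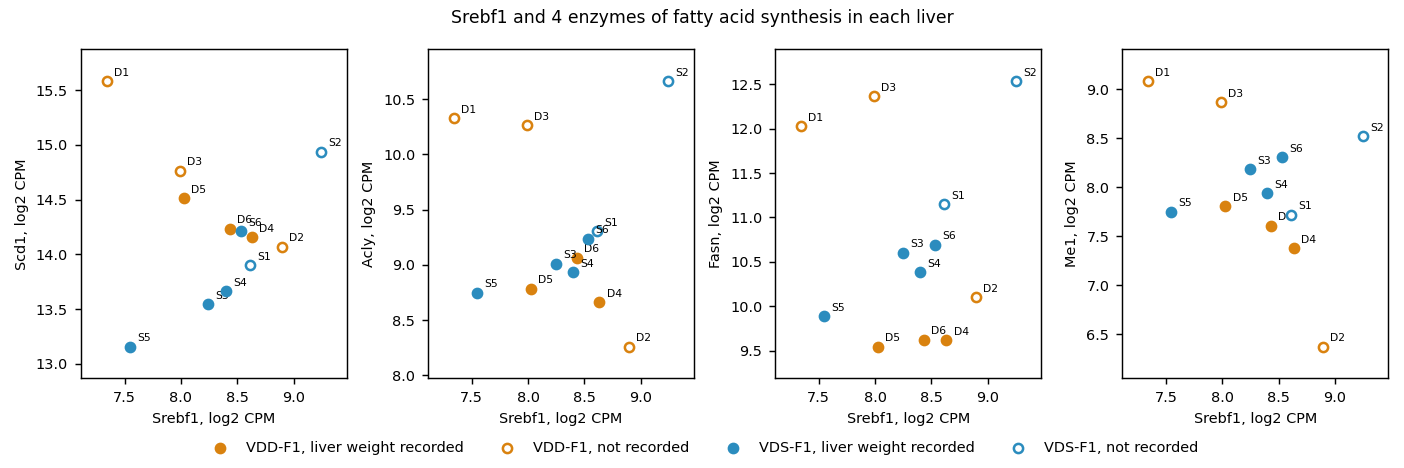
Log2 CPM of Scd1, Acly, Fasn and Me1 against log2 CPM of Srebf1 in each liver, orange for VDD-F1 (D1 to D6) and blue for VDS-F1 (S1 to S6), filled where a liver weight is recorded. The orange points fall from left to right in the Scd1 panel (r = -0.96) and the blue points rise (r = 0.94).

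Over the 12 mice the 45 pairs of members had r of -0.43 to 0.95, and the low values were those of the transcription factors and of Scd1. Thrsp and the 6 enzymes other than Scd1 had a median r of 0.85 over their 21 pairs (0.64 to 0.95), and Scd1 had a median r of 0.61 with those 7 (0.18 to 0.72). These libraries share their scaling, so the values are a description. The genes outside the list whose log2 CPM followed the mean of the members most closely over the 12 mice were Ralgps1 (r = 0.96), Cs, the citrate synthase gene (0.96), Aqp8, a water channel gene (0.95), Cyb5r3, which encodes a reductase that passes electrons to desaturases (0.95), Gpam, the acyltransferase of the first step of glycerolipid synthesis (0.94), and Mpp6 (0.94).

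Genes that feed carbon and NADPH to the pathway were listed as a group of 19. At an unadjusted p under 0.05, 13 of them were higher in the unrecorded set and none was lower (7.99% and 5.87% of all genes). After adjustment 5 passed (2.46% of all genes), and 2 were called (0.891%). The median of the 19 was 0.50 on the log2 scale, beside 0.01 over all genes. G6pdx, the entry enzyme of the pentose phosphate pathway, differed by 1.01 ± 0.17 (adjusted p = 0.00602 in edgeR) and Pgd, its other NADPH-forming enzyme, by 0.68 ± 0.14 (0.0260). Pklr, the liver pyruvate kinase and a classic ChREBP target, differed by 1.72 ± 0.40 (0.0390), and Slc2a2, the hepatic glucose transporter, by 0.90 ± 0.21 (0.0399). Without VDD2, 13 of the 19 passed adjustment and 4 were called, beside 4.03% and 1.44% of all genes. Of the 4 genes named, G6pdx passed adjustment without any 1 mouse, while Pgd was lost without any 1 of 5 mice, Slc2a2 of 7 and Pklr of 9 (adjusted p up to 0.101, 0.127 and 0.119 in edgeR). The call of G6pdx, which needs a difference above 1, was lost without VDD1 (0.89), VDD5, VDD6, VDS2, VDS3 or VDS5. It was also lost in other settings, such as the count without strand (0.96).

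Of 12 other desaturases and elongases, 4 were higher with adjusted p-values under 0.05 in edgeR, where 2.46% of all genes passed in either direction: Fads2 (0.92 ± 0.13), Elovl5 (0.98 ± 0.18), Fads1 (0.60 ± 0.11) and Elovl2 (0.47 ± 0.09), which act on polyunsaturated chains. Fads1 was lost without VDS2 (adjusted p = 0.0559 in edgeR) and Elovl2 without VDS1 or VDS2 (up to 0.0678). Of 13 triglyceride genes tested, Pnpla3, a lipid droplet hydrolase gene that follows SREBP-1, had the largest difference (3.57 ± 0.59, adjusted p = 0.00595) from a low level of 0.677 ± 0.329 CPM in the recorded set to 8.10 ± 6.50 CPM in the unrecorded set (SD, n = 7 and n = 5). Gpam differed by 1.32 (adjusted p = 0.0481 in edgeR), a call lost without any 1 of 10 mice (0.89, adjusted p = 0.270 without VDS2), and Gpat4, another glycerol-phosphate acyltransferase gene, fell by 0.59 (SE 0.10, adjusted p = 0.00602). Of 20 genes of upstream control 1, near the share of all genes, passed: Insig2, which retains SREBP precursors in the endoplasmic reticulum (0.78 ± 0.16, adjusted p = 0.0266), and it was lost without any 1 of 7 mice. Of 12 ChREBP and liver X receptor targets Pklr and Fgf21 passed (Fgf21 at 1.80 ± 0.44, adjusted p = 0.0462). Fgf21 was lost without any 1 of 11 mice (adjusted p = 0.0565 to 0.137 in edgeR).

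Cholesterol synthesis, which answers to SREBP-2, had 8 of 17 genes higher at an unadjusted p under 0.05 (7.99% of all genes) and none after adjustment, with a median of 0.42. Dhcr7 was at 0.64 ± 0.20 and Sqle at 1.22 ± 0.38 (adjusted p = 0.133 and 0.138 in edgeR). Without VDD2, 14 of the 17 were higher at that level, 7 passed and 4 were called (9.1%, 4.03% and 1.44% of all genes), with Sqle at 1.43 ± 0.26 (adjusted p = 0.00762 in edgeR) and Dhcr7 at 0.77 ± 0.16 (0.0141). Of 18 genes of fasting and fat oxidation 4 were higher and 2 lower at that level, with Ehhadh of peroxisomal oxidation at -0.39 ± 0.10 (adjusted p = 0.0718), and 1, Fgf21, passed. Of 16 clock genes 2 were higher, Per2 at 0.79 ± 0.25 and Cry2 at 0.35 ± 0.11, a share near that of all genes, and none passed.

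Other lists were compared between the diets within the recorded set, where 12.6% of all genes were lower in VDD-F1 at an unadjusted p under 0.05, 5.11% passed adjustment as lower, 5.87% passed as higher and 4.33% were called in either direction. Of the 19 carbon and NADPH genes 11 were lower in VDD-F1 at an unadjusted p under 0.05 and 5 passed, led by Slc2a2 (-1.27 ± 0.09, adjusted p = 7.94e-06 in edgeR) and Pklr (-1.52 ± 0.13, 3.49e-05), with Tkfc (-0.79 ± 0.10) and Khk (-0.79 ± 0.11), which handle fructose. Of 12 triglyceride genes tested 5 passed as lower, among them Dgat2 (-0.62 ± 0.09), which adds the last acyl chain, and Gpd1 (-0.56 ± 0.10). Of the desaturases and elongases Scd2 (2.57 ± 0.21) and Elovl2 (0.58 ± 0.10) passed as higher. As lower passed 2 of 17 cholesterol synthesis genes, 3 of 18 genes of fasting and fat oxidation and 2 of 20 genes of upstream control, and none of these passed as higher.

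Clock genes moved with that contrast too. Of the 16 listed 11 were lower in VDD-F1 at an unadjusted p under 0.05, 9 passed adjustment and 6 were called, with a median of -0.87 on the log2 scale, beside 12.6%, 5.11% and 4.33% of all genes. Hlf was at -0.82 ± 0.11, Cry2 at -0.72 ± 0.14, Nr1d1 at -1.67 ± 0.35 and Per2 at -1.32 ± 0.31, with adjusted p-values of 0.000839 to 0.0187 in edgeR. The hour of dissection is not given in the sources used here, and the part of clock phase in the lower Thrsp, Mlxipl and Fasn was not tested. Markers of several cell types moved in the same mice. As higher in VDD-F1 passed adjustment 3 of 9 hepatocyte, 3 of 8 stellate and 2 of 5 cholangiocyte markers, led by Col1a1 of collagen-forming cells (2.67 ± 0.23, adjusted p = 3.21e-05 in edgeR). As lower passed 4 of 8 Kupffer, 1 of 8 stellate, 1 of 8 endothelial and 2 of 3 adipocyte markers, and none of 3 lymphocyte markers passed. Of all genes 5.87% passed as higher and 5.11% as lower. The part of these cell types in the members' differences was not tested.

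**Figure D4:**
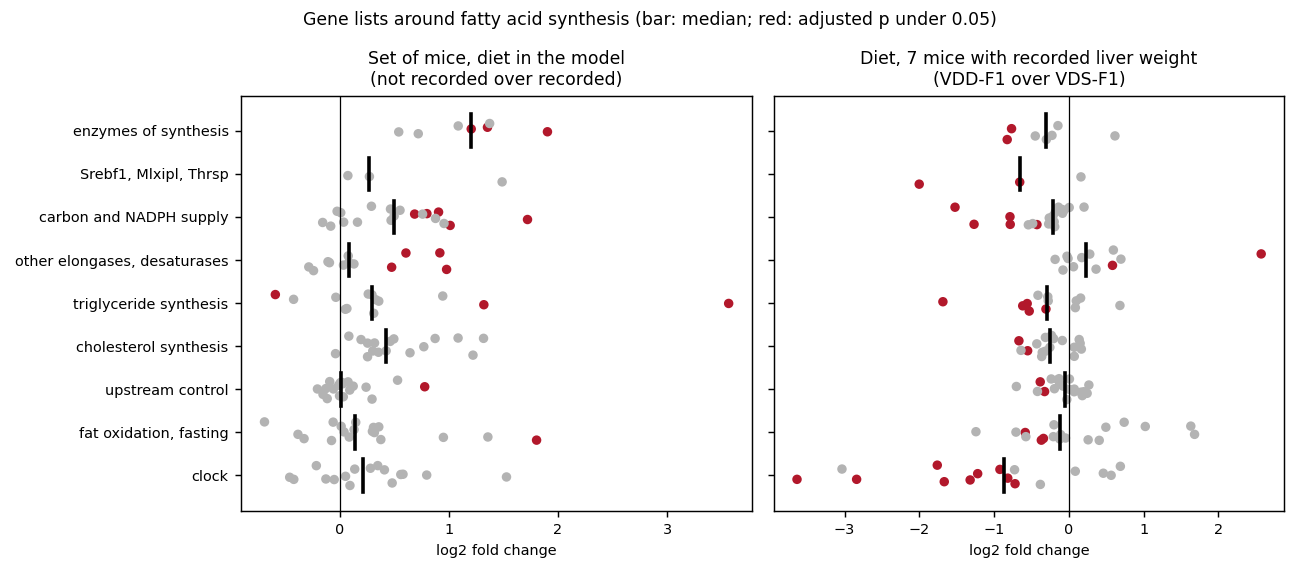
Log2 fold change of every tested gene of 9 lists between the sets (left) and between the diets in the 7 recorded mice (right), with a bar at each list's median and red for an adjusted p under 0.05. On the left the enzymes of synthesis (median 1.20) and the carbon and NADPH genes (0.50) lie to the right of 0, and on the right the clock genes (-0.87) lie furthest to the left.

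In all 12 mice 0 genes of any of these lists passed adjustment between the diets in edgeR. The lowest p-values were those of Scd2 (1.96 ± 0.44, adjusted p = 0.0855 in edgeR), a desaturase better known from brain and fat, and of Abcg5 (0.93 ± 0.24, adjusted p = 0.0969), a sterol exporter that liver X receptors drive. With DESeq2 6 listed genes passed (Scd2, Abcg5, Abcg8 and Elovl2 as higher, Cry2 and Hlf as lower), and with voom these and Per2 and Dgat2, both lower. Of all 12453 genes, 253 were called with DESeq2 (2.03%) and 252 with voom, beside 5 in edgeR (0.0402%). Scd2 was called with DESeq2 (1.95, adjusted p = 0.00653), with voom (2.06, adjusted p = 0.0263) and with no filter on low counts (1.95, adjusted p = 0.0312), and Per2 with voom (-1.23, adjusted p = 0.0322). In edgeR 5 listed genes passed without VDD1 (Scd2, at 2.16 with an adjusted p of 0.00985, Abcg5, Abcg8, Cry2 and Hlf) and 4 without VDD3 (Scd2, Abcg5, Hlf and Mvk). Calls over all genes numbered 260 without VDD1 and 94 without VDD3. With the set as a covariate Cry2 passed (-0.59, adjusted p = 0.0468 in edgeR). Of the 12 desaturases and elongases 4 were higher at an unadjusted p under 0.05, where 9.55% of all genes were, the others being Elovl2, Fads1 and Fads2 at 0.50, 0.54 and 0.75.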

How the data were processed

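For each of 12 liver libraries the authors deposited raw counts per gene, made by STAR from trimmed reads on mm10 (GRCm38) with annotation from GENCODE M15. STAR's version is not given in the sources used here, and nothing had been normalized. The reverse-strand count was used, which held 92.7% to 95.8% of the stranded counts. Symbols and positions came from GENCODE M21, which matched 52489 of 52636 genes. Only fragments that map to 1 place were counted.

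Genes whose counts averaged 12 or more were tested with edgeR 4.0.16 in R 4.3.3 (TMM, quasi-likelihood fit in its legacy form), with Benjamini-Hochberg adjustment over all genes. The study's methods name DESeq2, which was run as an alternative (1.42.0). The other alternatives were voom with quality weights (limma 3.58.1), DESeq2's size factors, other filters, the count without strand, a robust fit, each mouse left out, a replicate block, the set of mice as a covariate, and fits within each set or diet. The newer quasi-likelihood form was chosen after the data had been seen. CPM are TMM-scaled, and log2 CPM used a prior count of 2. Means of log2 CPM and of the log2 ratio were compared by exact permutation, without diet or set as a further term. Correlations were tested by 100000 resamples over 12 mice, or exactly over 6 or 7 (SciPy 1.17.1).

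On simulated counts for the diets, edgeR gave an adjusted p under 0.05 to 76 of 100 genes changed by 1 on the log2 scale. It did so for 100 of 100 changed by 2, and falsely for 10 unchanged genes, with 12453 genes in all. The simulated counts took their spread from a trend over genes and held no difference between the sets. A call in the real data also needs a log2 difference above 1 in size. The simulation therefore does not give the share of such changes in the members that would be called. The members and lists were chosen with earlier results of these data known. All 10 members are named, with up to 4 genes of the smallest p in each other list and the 6 genes most like the members. Other gene groups and the study's histology were not analysed here.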

Additional observations from a re-analysis of the deposited data

Results flagged for a closer look

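Within each diet and each set, the highest or lowest mouse was compared with the spread of its group for the 10 members and the carboxylase ratio. Of 44 groups of values 6 held a mouse far from the others, where chance gives about 1 in 20 in independent groups. These groups are not independent, since each mouse is in a diet and in a set and the members vary together. No excess over chance is read from the count.

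VDS2 was far above the other VDS-F1 mice in 3 genes. Its log2 CPM was 9.41 for Thrsp, where the others had 7.59 to 8.15. For Acly it was 10.66, where they had 8.75 to 9.30, and for Elovl6 it was 8.34, where they had 6.71 to 7.05. In the recorded set VDD4 was the low mouse of Elovl6, at 6.19 log2 CPM against 6.65 to 6.94.

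The log2 ratio of Acacb to Acaca set 2 further mice apart. VDS6 had 1.83, where the other VDS-F1 mice had 1.13 to 1.37. VDD2 had 0.14, where the other unrecorded mice had 1.12 to 1.31. VDS6 is also the library with the most fragments outside genes (11.1%), and the part of that share in its ratio was not tested.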

How the results depend on the processing

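The absence of calls between the diets held under most alternatives. Members called numbered 1 with voom and 1 in the recorded set alone (Thrsp), and 0 without any 1 mouse. Members at an unadjusted p under 0.05 numbered 3 with voom, 2 with no filter on low counts, 2 with the replicate block, 2 with the set as a covariate, 8 in the recorded set, 0 in the unrecorded set and 1 to 2 without 1 mouse. Signs of the small diet differences turned. Srebf1 was at 0.16 in the recorded set. Acaca was at -0.078 with the set as a covariate and -0.23 in the recorded set, and Acacb was at 0.020 in the unrecorded set. Elovl6 and Me1 were at -0.13 and -0.23 with voom, -0.010 and -0.20 with the replicate block, -0.16 and -0.13 with the set as a covariate, and -0.30 and -0.45 in the recorded set. Without 1 mouse the diet difference ran from -0.086 to 0.50 for Acaca, -0.51 to 0.17 for Acacb, -0.29 to 0.39 for Acly, -0.31 to 0.48 for Elovl6, -0.59 to 0.47 for Fasn and -0.27 to 0.22 for Me1, while Thrsp kept its sign (-1.55 to -0.60).

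Between the sets 3 members were called, and 5 with DESeq2, 5 with voom, 6 with no filter, 0 with the replicate block (as of all genes), 0 in VDD-F1 mice alone and 1 to 6 without 1 mouse. Acaca passed without any 1 mouse, Fasn was lost without VDS2, and Elovl6 without any 1 of 10 mice. At an unadjusted p under 0.05 there were 7, and 2 with the replicate block. Srebf1 turned to -0.062 with the block and -0.17 in VDD-F1 mice alone, and Mlxipl to -0.045 with no diet in the model, -0.031 in VDS-F1 mice alone and -0.072 to 0.20 without 1 mouse. The replicate numbers name different mice: deviations of same-numbered mice had r of -0.08 to 0.10, and only number 3 holds both sets, so the block leaves little of the set difference to test. In the interaction 0 to 1 members were called without 1 mouse and 0 to 6 had an unadjusted p under 0.05 (6 without VDD2), with ranges of -0.092 to 0.49 for Mlxipl, -0.64 to 0.72 for Acly, -0.17 to 1.12 for Elovl6 and -0.67 to 0.42 for Scd1.

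All-gene counts also moved: the diets gave 5 calls, and 253 with DESeq2, 252 with voom, 70 with no filter, 17 in the newer form, 17 with the block, 2 in the robust fit, 21 with the set as a covariate and 0 to 260 without 1 mouse. The sets gave 111 calls, and 165 with DESeq2, 133 with voom, 202 with no filter (of 24759 genes), 0 with the block (671 at an unadjusted p under 0.05), 31 in VDD-F1 mice alone and 68 to 178 without 1 mouse. The median r of Srebf1 with 7 genes ran from -0.52 to 0.23 without 1 mouse and that of Mlxipl from 0.44 to 0.66. The diet difference in the carboxylase ratio ran from -0.56 to -0.33, with p above 0.05 without any 1 of 8 mice, and the set difference from -0.23 to 0.062. The cause of these shifts was not tested.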
